A study of Rattus norvegicus with 10 samples.

Results

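The transcripts of 8 tight junction genes were followed in whole mammary glands of E2 treated rats: the claudin genes *Cldn1*, *Cldn3*, *Cldn4*, *Cldn7* and *Cldn5*, the occludin gene *Ocln*, the scaffold gene *Tjp1* (ZO-1) and the junctional adhesion molecule gene *F11r* (JAM-A). Every probe set annotated to 1 of these symbols alone was kept, which gave 12 of the 31042 probe sets tested. *Cldn1* is measured by 3 probe sets, *Ocln* and *Tjp1* by 2 each, and the other genes by 1 each. The glands came from 5 ACI rats (ACI/SegHsd) and 5 BN (Brown Norway) rats, all of them females that had carried a subcutaneous implant releasing 17β-estradiol (E2) for 12 weeks from 9 weeks of age. The ACI strain is susceptible and the BN strain resistant to mammary cancer induced by E2, and the arrays compare the strains under that treatment. No untreated rat is among these samples. Each rat gave 1 Affymetrix Rat Genome 230 2.0 array of total RNA. Errors therefore describe variation among animals together with that between arrays, and 5 arrays a strain limit the precision. The RNA isolation text of the BN arrays mentions ACI rats, while their titles and strain entries say BN.

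Tight junctions seal the space between neighbouring cells. Claudins are small membrane proteins that form the strands of the junction and set which ions pass. Occludin and JAM-A lie in the same membrane, and ZO-1 ties them to actin from the cytoplasm. In the mammary gland the luminal epithelium carries *Cldn3*, *Cldn4*, *Cldn7* and *Cldn1*, and its tight junctions close when milk secretion begins. *Cldn5* is by contrast the main claudin of blood vessel endothelium. Whole glands mix all these cells, and in such tissue fewer cells of a type and less RNA per cell cannot be told apart.

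The promoters of 5 of the genes are shown because 4 of them, *Cldn3*, *Cldn7*, *Ocln* and *F11r*, are epithelial genes whose windows hold the motif marked below, and the other, *Cldn5*, is the endothelial gene they are set against. RefSeq (build GRCr8) gave a promoter of 300 bases, 250 before and 50 after the start, for 7 of the 8 genes, all but *Cldn4*. The windows are chr12:27346498-27346797 on the minus strand for *Cldn3*, chr10:55188420-55188719 on the plus strand for *Cldn7*, chr2:33441149-33441448 on the minus strand for *Ocln*, chr13:86405979-86406278 on the plus strand for *F11r* and chr11:95718549-95718848 on the minus strand for *Cldn5*. Each is written 5′ to 3′ along the gene. Capitals mark the E-box CAGGTG on either strand, the core that the epithelial repressors of the Snail and ZEB families are known to bind.
Cldn3: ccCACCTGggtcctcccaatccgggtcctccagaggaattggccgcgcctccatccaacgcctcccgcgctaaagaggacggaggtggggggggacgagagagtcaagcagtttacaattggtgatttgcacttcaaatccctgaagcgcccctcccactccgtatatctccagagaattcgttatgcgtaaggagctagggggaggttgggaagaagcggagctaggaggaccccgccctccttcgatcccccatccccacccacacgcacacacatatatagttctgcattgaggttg
Cldn7: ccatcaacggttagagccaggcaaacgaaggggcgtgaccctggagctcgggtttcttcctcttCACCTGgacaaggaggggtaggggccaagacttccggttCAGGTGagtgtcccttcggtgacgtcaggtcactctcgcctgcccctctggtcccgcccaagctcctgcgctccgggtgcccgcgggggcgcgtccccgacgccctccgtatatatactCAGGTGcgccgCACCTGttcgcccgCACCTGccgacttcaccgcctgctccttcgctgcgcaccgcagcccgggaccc
Ocln: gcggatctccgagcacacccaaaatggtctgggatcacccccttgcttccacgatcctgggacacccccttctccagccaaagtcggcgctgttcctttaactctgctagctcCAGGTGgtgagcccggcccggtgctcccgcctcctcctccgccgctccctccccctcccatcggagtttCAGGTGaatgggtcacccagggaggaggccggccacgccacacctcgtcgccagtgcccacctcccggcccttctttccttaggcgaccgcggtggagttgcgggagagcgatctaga
F11r: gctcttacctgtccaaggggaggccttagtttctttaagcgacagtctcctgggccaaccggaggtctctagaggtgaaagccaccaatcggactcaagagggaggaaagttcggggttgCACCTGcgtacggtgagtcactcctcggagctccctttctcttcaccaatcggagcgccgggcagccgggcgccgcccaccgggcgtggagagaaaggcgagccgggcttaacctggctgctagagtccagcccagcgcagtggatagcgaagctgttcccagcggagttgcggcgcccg
Cldn5: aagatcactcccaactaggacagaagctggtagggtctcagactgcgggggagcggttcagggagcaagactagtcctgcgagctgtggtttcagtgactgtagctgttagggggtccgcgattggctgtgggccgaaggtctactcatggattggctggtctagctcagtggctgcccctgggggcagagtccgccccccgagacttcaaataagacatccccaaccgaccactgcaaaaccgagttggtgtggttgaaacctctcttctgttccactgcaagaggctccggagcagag
The E-box CAGGTG occurred 5 times in the *Cldn7* window, 2 times in that of *Ocln*, 1 time each in those of *Cldn3* and *F11r*, and in none of those of *Cldn1*, *Cldn5* and *Tjp1*. Over all 33469 promoters of this length, 18.8% held it. Other motifs searched on both strands were the GC box GGGCGG, found in 5 of the 7 windows and in 33.1% of all promoters, the ETS core GGAAG, found in 4 of the 7 windows and in 70.1%, the estrogen receptor half-site GGTCA, found in 2 of the 7 windows and in 40.5%, the Grainyhead site AACCGGTT, found in none of the 7 windows and in 0.173%, and the TATA box TATAAA, found in none and in 14.2%. None of these motifs contains another. A match describes the letters of the window and is not a measured binding site.

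The authors' values are log2 expression levels per probe set. The difference between strains was fitted with limma for all 31042 probe sets together, and one with a Benjamini-Hochberg adjusted p under 0.05 was called. Log2 fold changes are ACI minus BN. A probe set whose rats of a strain all lie under a log2 value of 4 is near background there. Array medians were 3.35 to 3.53. A first principal component with 57.1% of the variance parted the strains. On the second, with 18.9%, BN rat 4 (-49.85) and BN rat 5 (-90.72) stood away from the other BN rats (23.23 to 49.18). These 2 rats and ACI rats 4 and 5 have animal IDs opening with H, and the others have IDs opening with S; the sources used here do not say what the letters mean.

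*Cldn1*, *Cldn3*, *Ocln* and *F11r* were higher in ACI glands, and none of the 8 genes was called higher in BN glands. Of the 12 probe sets, 6 were called higher in ACI and none higher in BN; of all probe sets, 12.7% were called, 6.79% higher in ACI and 5.87% higher in BN. At an unadjusted p under 0.05 in limma there were 8 toward ACI and none toward BN. The share of all probe sets at that threshold was not counted, so these counts have no background to be read against. In 5 of the 12 the lowest ACI rat lay above the highest BN rat, and in none the reverse; over all probe sets these shares were 6.8% and 5.47%. The 6 calls became 5 in the rats of ID series S alone (6.67% of all probe sets) and 7 without BN rats 4 and 5 (8.32%). In the 4 rats of series H alone there were 0 (0.145%). *Cldn4* and *Tjp1* were not called, the fold change of *Cldn7* was the greatest of the genes and was not called, and *Cldn5* had the opposite sign.

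**Figure D1:**
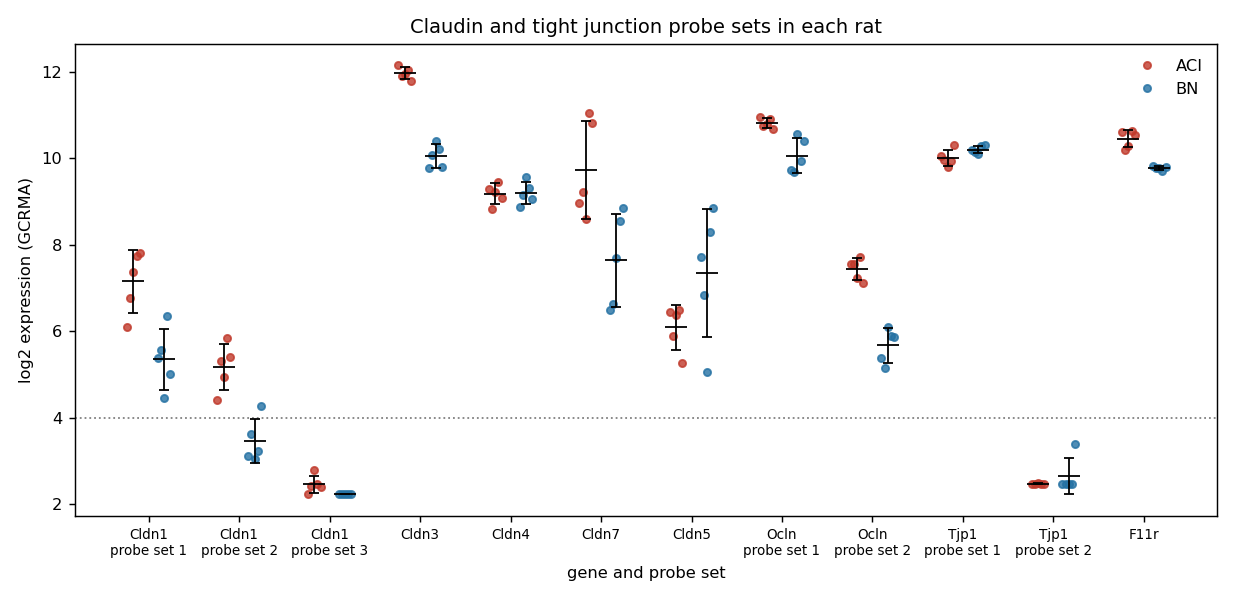
Log2 expression (y axis) of each probe set of the 8 genes (x axis) in every ACI rat (red) and BN rat (blue); bars show mean ± SD (n = 5 each) and the dotted line marks a log2 value of 4. The strains do not overlap in *Cldn3*, both *Ocln* probe sets, *F11r* and the second *Cldn1* probe set, whereas *Cldn4* averaged 9.18 in ACI glands and 9.19 in BN glands.

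*Cldn3*, which encodes a sealing claudin of luminal epithelium, showed the smallest adjusted p of the 12 probe sets. Its log2 levels (1368115_at) were 12.15, 11.91, 11.95, 12.05 and 11.80 in ACI rats 1 to 5, against 9.78, 10.08, 10.40, 10.22 and 9.79 in BN rats 1 to 5. All ACI rats lay above all BN rats, with more than 1 log2 unit between the groups. The means were 11.97 ± 0.134 in ACI and 10.05 ± 0.271 in BN rats (SD, n = 5), which is 1.92 on the log2 scale with a standard error of 0.132 (adjusted p = 8.71e-05, limma), or a 3.78-fold higher level in ACI. Either ID series alone gave the same difference, 1.92.

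*Cldn4*, which encodes a claudin of the same epithelium and lies next to *Cldn3* on chromosome 12 with only 2 pseudogenes between them in the RefSeq annotation, did not follow it. Its log2 levels (1388547_at) were 9.30, 8.82, 9.23, 9.46 and 9.09 in ACI rats and 8.88, 9.16, 9.56, 9.31 and 9.05 in BN rats. The groups overlapped over nearly their whole range. The log2 fold change was -0.01, with a 95% interval of -0.37 to 0.34 (adjusted p = 1 from limma), an interval that holds differences in either direction and stays far below that of *Cldn3*. Within a rat, the *Cldn3* value less the *Cldn4* value was 2.85, 3.09, 2.72, 2.59 and 2.71 in ACI rats, against 0.90, 0.92, 0.84, 0.91 and 0.74 in BN rats. This pair was chosen after its values were seen, so the offset, nearly constant in BN, is a description with no test.

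*Cldn7*, a claudin of the basolateral membrane of epithelial cells as well as of the junction, varied widely in both strains. Its log2 levels (1370894_at) were 8.96, 9.23, 8.59, 11.05 and 10.82 in ACI rats, against 6.48, 6.64, 7.69, 8.55 and 8.84 in BN rats. BN rat 5 lay above ACI rat 3, and in each strain rats 4 and 5, of ID series H, were the highest. The difference of 2.09, with a standard error of 0.679, was not called (adjusted p = 0.0871, limma). It was 1.99 within series S and 2.24 within series H, and with the ID series as a block it passed the test (adjusted p = 0.00222 from limma), in a fit that called 7.26% of all probe sets higher in ACI. Without BN rats 4 and 5 it was 2.79 (adjusted p = 0.0358 from limma), in a fit that sets ACI rats of both series against BN rats of series S alone. Rats of series H lay above those of series S by 2.01 in ACI and by 1.76 in BN.

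**Figure D2:**
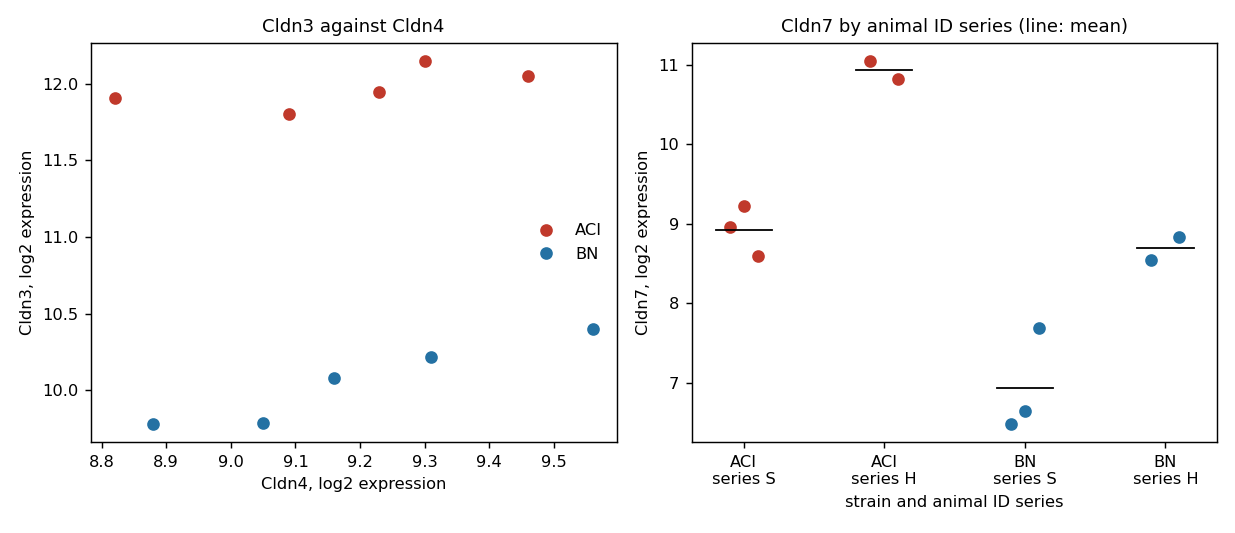
Left, log2 expression of *Cldn3* (y axis) against that of *Cldn4* (x axis), 1 point per rat (ACI red, BN blue). Right, log2 expression of *Cldn7* (y axis) by strain and animal ID series (x axis), with lines at the means; series H lies above series S by 2.01 in ACI and 1.76 in BN.

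*Cldn1*, which encodes a barrier claudin best known from skin, was measured by 3 probe sets. The first (1383946_at) had log2 levels of 6.09, 6.77, 7.37, 7.74 and 7.81 in ACI rats, against 5.38, 5.57, 4.45, 6.36 and 5.02 in BN rats. ACI rat 1 lay below BN rat 4, and the other ACI rats lay above every BN rat. Between strains it differed by 1.80 (adjusted p = 0.0315 in limma, standard error 0.441), a 3.48-fold higher level in ACI; leaving out each rat in turn, the call was lost 8 of 10 times and remained without ACI rat 1 or BN rat 4. The second (1396150_at) had 4.40, 5.30, 4.93, 5.84 and 5.40 in ACI rats, against 3.12, 3.63, 3.04, 3.23 and 4.28 in BN rats, which did not overlap. It differed by 1.71 (adjusted p = 0.0104 in limma, standard error 0.325), and was called in all 10 of those fits. Of its BN rats 4 of 5 lay under 4, and with values under 4 set to 4 the difference was 1.12 (adjusted p = 0.0219 in limma). The third (1387470_at) was near background in both strains, at up to 2.78 in ACI rats and at 2.23, the lowest value of the data, in each BN rat.

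Transcripts of *Ocln* and *F11r*, which encode membrane proteins beside the claudins, were higher in ACI as well. *Ocln*, the occludin gene, had log2 levels of 10.95, 10.74, 10.80, 10.91 and 10.67 in ACI rats on its first probe set (1378753_at), against 9.72, 9.68, 10.56, 9.95 and 10.40 in BN rats. BN rat 3 came close to the lowest ACI rat, without overlap. The difference was 0.75 (adjusted p = 0.0294 in limma, standard error 0.181). Leaving out each rat in turn, this call remained 3 of 10 times, without ACI rat 5, BN rat 3 or BN rat 5. The second *Ocln* probe set (1398281_at) had 7.55, 7.55, 7.22, 7.72 and 7.11 in ACI rats, against 5.38, 5.14, 6.10, 5.88 and 5.87 in BN rats. These lay about 1 log2 unit or more apart, and the difference of 1.76 (adjusted p = 0.0011 in limma, standard error 0.206) was called in all 10 fits. The 2 probe sets thus gave a 1.68-fold and a 3.38-fold higher level in ACI. The sequences of the probes were not analysed here.

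*F11r*, which encodes JAM-A, an immunoglobulin-type adhesion molecule of the junction, had log2 levels of 10.61, 10.20, 10.29, 10.64 and 10.53 in ACI rats (1387279_at). In BN rats they were 9.83, 9.78, 9.77, 9.71 and 9.79, a narrow band below all ACI rats. ACI glands were higher by 0.68 (adjusted p = 0.00175 in limma, standard error 0.0883), a 1.60-fold higher level in ACI, with 0.57 in rats of ID series S and 0.84 in those of series H. In *Cldn3*, *F11r*, both *Ocln* probe sets and the second *Cldn1* probe set, the exact permutation test over rats gave a two-sided p of 0.0079, the smallest that 5 rats against 5 allow. These are the probe sets without overlap, and a lack of overlap always gives this p, so the test adds nothing to it. Of all probe sets, 12.3% did not overlap, counting either direction.

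*Tjp1*, which encodes the scaffold ZO-1, had log2 levels of 10.06, 9.96, 9.81, 9.95 and 10.31 in ACI rats on its first probe set (1372473_at), against 10.20, 10.14, 10.10, 10.28 and 10.30 in BN rats. The groups overlapped through ACI rat 5, the highest of all rats. The log2 fold change was -0.19, with a 95% interval of -0.39 to 0.02 (adjusted p = 0.249 from limma). Without ACI rat 5 it was -0.26 and was called higher in BN (adjusted p = 0.0368 from limma). The second *Tjp1* probe set (1395337_at) was near background in both strains, between 2.47 and 2.50 in ACI rats and at 2.47 in BN rats 1 to 4, with 3.39 in BN rat 5.

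*Cldn5*, the endothelial claudin, had log2 levels of 6.45, 5.89, 6.37, 6.48 and 5.27 in ACI rats (1374104_at), against 7.72, 6.83, 5.06, 8.29 and 8.85 in BN rats. Apart from BN rat 3, the lowest of all rats, every BN rat lay above every ACI rat. The means were 6.09 ± 0.518 in ACI and 7.35 ± 1.48 in BN rats (SD, n = 5). The difference of -1.26 was not called (95% interval -2.82 to 0.31, adjusted p = 0.321 in limma). Without BN rat 3 it was -1.83 and was called higher in BN (adjusted p = 0.039 from limma). It was -0.30 within ID series S, which holds BN rat 3, and -2.70 within series H. The interaction of strain and series, -2.39, did not pass the test in limma (adjusted p = 0.344), nor did that of any other member, where 2.76% of all probe sets passed.

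Markers of other cells moved with strain, and in part with *Cldn5*. Of 16 endothelial genes measured, 8 were called, each of them higher in BN, with a median log2 fold change of -1.09; over all 14217 genes by their brightest probe set, 8.29% were called higher in ACI and 9.12% higher in BN, with a median of 0. *Vwf*, which encodes von Willebrand factor, had -2.46 (adjusted p = 0.000272), *Mmrn2*, an extracellular matrix gene of vessels, had -2.03 (adjusted p = 0.0129) and *Eng*, a TGF-β co-receptor gene, had -1.74 (adjusted p = 0.0292, all from limma). The summed level of the endothelial list, as the log2 of its added unlogged values, was 10.73 to 11.54 in ACI rats and 11.85 to 12.66 in BN rats. BN rat 3, with the lowest *Cldn5* value, had 12.19 on this list and a *Vwf* level of 8.17, the highest of all rats. Other endothelial genes were split in that rat. *Pecam1*, at 6.69, and *Kdr*, at 8.64, were the lowest of the BN rats, whereas *Flt1*, at 6.31, and *Tie1*, at 6.4, were the highest. On 9 genes of lymphocytes and macrophages, of which 8 were called and all of these toward BN, the summed level was 11.57 to 12.23 in ACI rats and 12.77 to 13.76 in BN rats, with the lowest BN value in rat 3. That rat had the B cell gene *Ms4a1* at 2.23 and *Cd79b* at 2.24, as had all ACI rats, against at least 10.36 and 6.38 in the other BN rats. Its *Ptprc*, *Cd3d* and *Cd3e* levels were also the lowest of the BN rats. The macrophage genes of this list did not follow: in BN rat 3 *Cd68*, at 10.28, and *Itgam*, at 5.67, were the highest of all rats. *Csf1r*, at 10.49, shared the highest level with BN rat 1, and *Cd14*, at 11.35, lay within the range of the other BN rats. The genes named for BN rat 3 were singled out after their values were seen. With the mean of this list as a covariate, an alternative chosen after seeing the data, no member was called, where 0.606% of all probe sets were called higher in ACI. *Cldn5* was 2.86 in that fit, *Cldn3* 1.31, *F11r* 0.72 and the first and second *Cldn1* probe sets 3.06 and 2.10. The list itself separates the strains. Markers of adipocytes (1 of 9 called, toward BN), of basal and myoepithelial cells (3 of 10, toward ACI) and of skeletal muscle (none of 8) were also measured. The muscle genes had fold changes of 3.01 to 4.50 on the log2 scale, with a median of 3.44, and mean levels of 6.58 to 11.43 in ACI and 3.13 to 10.31 in BN rats. The part of all these cells in the values was not tested.

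**Figure D3:**
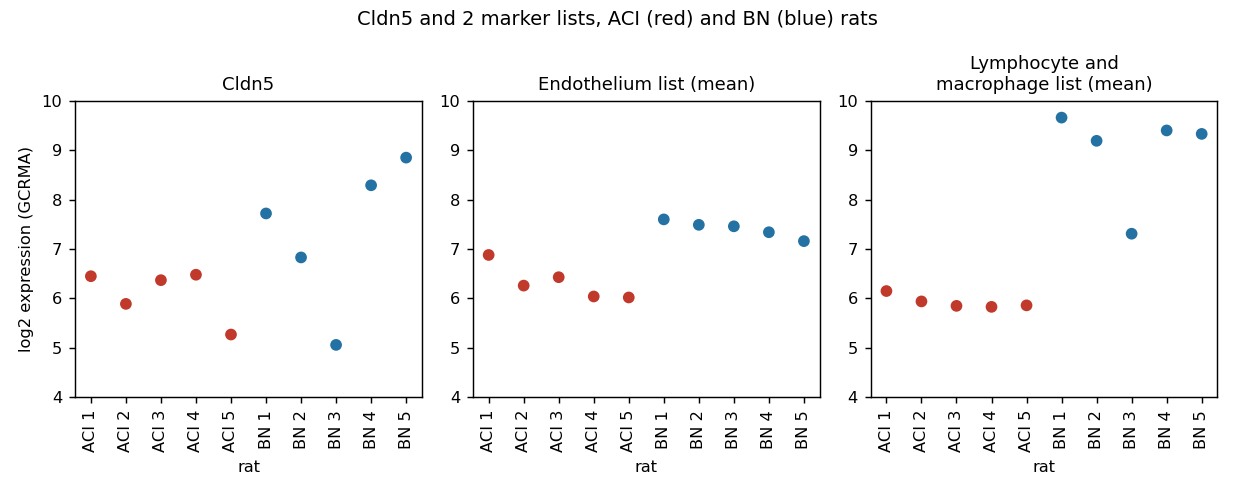
Log2 expression (y axis) of *Cldn5* and the mean log2 level of 16 endothelial genes and of 9 lymphocyte and macrophage genes in each rat (x axis; ACI red, BN blue). BN rat 3 is at 5.06 for *Cldn5* and 7.31 on the lymphocyte and macrophage list, the lowest of the BN rats in both, and at 7.46 on the endothelial list.

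Set against *Cldn5* on the same array, 3 of the 4 epithelial claudins differed between strains in the exact permutation test, and none did after adjustment over all probe sets. The log2 level of *Cldn3* less that of *Cldn5* was 5.70, 6.02, 5.58, 5.57 and 6.53 in ACI rats, against 2.06, 3.25, 5.34, 1.93 and 0.94 in BN rats. The strains did not overlap, though BN rat 3 came close. The difference between strains was 3.18 (95% interval 1.39 to 4.96; exact permutation test, two-sided p = 0.0079). For *Cldn1* it was 3.06 (95% interval 1.41 to 4.71; exact permutation p = 0.0079), also without overlap, with -0.36 to 2.54 in ACI and -3.83 to -0.61 in BN rats. For *Cldn7* it was 3.35 (95% interval 1.28 to 5.41; exact permutation p = 0.024), where BN rat 3, at 2.63, lay above ACI rats 1 and 3. For *Cldn4* it was 1.25 (95% interval -0.53 to 3.02; exact permutation p = 0.13). Of all probe sets less *Cldn5*, 1.93% were higher in ACI without overlap. The smallest p this design allows is 0.0079, which any difference without overlap receives, and these are 4 comparisons that share the spread of *Cldn5*. When the same difference was fitted for every probe set and adjusted over all 31041 of them, with ordinary variances, none of the 4 passed (adjusted p = 0.158 for *Cldn1*, 0.164 for *Cldn3*, 0.201 for *Cldn4* and 0.182 for *Cldn7* from limma's linear fit), where 0.19% of probe sets were called higher in ACI and 0.0612% higher in BN. This turned on BN rat 3: without it the differences were 3.40, 3.84, 1.91 and 3.93 for *Cldn1*, *Cldn3*, *Cldn4* and *Cldn7*, and all 4 passed (adjusted p = 0.00957, 0.00322, 0.00957 and 0.00957 from the same fit). *Cldn5* itself was -1.83 without that rat, and each difference contains that change. *Cldn4* passed although its own fold change there was 0.08. The share of all probe sets that passed without BN rat 3 was not counted, so these passes cannot be read as particular to the claudins. Among rats 1 to 3 of each strain (series S) they were 1.91, 2.22, 0.22 and 2.29, and among rats 4 and 5 (series H) 4.78, 4.62, 2.79 and 4.94.

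**Figure D4:**
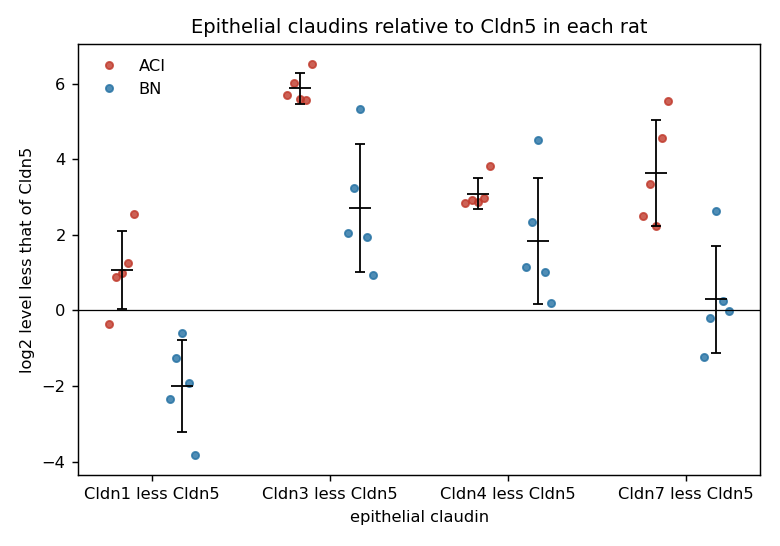
Log2 level of each epithelial claudin less that of *Cldn5* on the same array (y axis) in each ACI rat (red) and BN rat (blue), with mean ± SD (n = 5 each). The zero line has no meaning of its own, since probe sets differ in brightness; the difference between strains was 3.06 for *Cldn1*, 3.18 for *Cldn3*, 1.25 for *Cldn4* and 3.35 for *Cldn7*.

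Luminal epithelial markers were in part higher in ACI glands. Of 14 measured, 6 were called higher in ACI and none in BN, with a median log2 fold change of 0.59. Over all genes, 8.29% were called higher in ACI and 9.12% higher in BN, with a median of 0. *Ehf* and *Elf5*, epithelial transcription factors of the ETS family, had 2.81 (adjusted p = 0.00315) and 1.06 (adjusted p = 0.00144), and *Krt18*, a keratin of luminal cells, had 1.02 (adjusted p = 0.0391, all from limma). Other keratins of the list did not pass the test, with *Krt7* at -1.53, the lowest of the list (adjusted p = 0.0712), *Krt19* at -0.18 (adjusted p = 0.901) and *Krt8* at 0.22 (adjusted p = 0.714). The summed level of this list was 14.81 to 15.19 in ACI rats and 14.14 to 14.90 in BN rats, with BN rat 3 the highest of its strain. The mean level of the list was 9.65 to 9.99 in ACI rats and 8.80 to 9.82 in BN rats. Only BN rat 3 lay within the ACI range, so this mean nearly separates the strains. With it as a covariate, *Cldn3* had a log2 fold change of 1.55 (adjusted p = 0.00142), the second *Ocln* probe set 1.56 (adjusted p = 0.0303), *F11r* 0.64 (adjusted p = 0.0376) and the second *Cldn1* probe set 2.23 (adjusted p = 0.0319, all from limma). These 4 were called in a fit that called 2.93% of all probe sets higher in ACI, and the first probe sets of *Cldn1* and *Ocln* were not. The part of luminal cells in the values was not tested.

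The rest of the tight junction was searched through a list of 54 further genes, of which 44 were measured. Of these, 9 were called higher in ACI and 4 higher in BN, with a median log2 fold change of 0.06, against 8.29% and 9.12% of all genes. Leaving out each rat in turn gave 6 to 12 calls toward ACI and 2 to 5 toward BN. *Cldn8*, *Cldn10*, *Ildr1*, *Crb3*, *Cgn*, *Cgnl1*, *Clmp* and *Arhgef2* were called in all 10 of these fits, *Ybx3* in 6, *Lsr* in 4, *Prkci* in 3, and *Mpdz* and *Ildr2* in 1 each. Among 11 further claudins, 6 were near background in every rat. *Cldn10*, an ion channel-forming claudin, had a log2 level of 5.81 ± 0.213 in ACI and 3.44 ± 0.508 in BN (SD, n = 5 each), or a log2 difference of 2.37 (adjusted p = 0.000568 from limma). In BN 4 of 5 rats lay under 4, and with values under 4 set to 4 the difference was 1.80. *Cldn8*, a claudin of tight epithelia, was at 11.80 ± 0.213 in ACI and 10.55 ± 0.509 in BN (SD, n = 5 each), or a log2 difference of 1.25 (adjusted p = 0.0113 from limma). It was named after its values were seen.

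Among 9 further membrane proteins, *Ildr1*, *Lsr* and *Crb3* were called higher in ACI. *Ildr1* and *Lsr* encode angulins, which mark the corners where 3 cells meet. *Ildr1* was at 8.23 ± 0.209 in ACI and 6.68 ± 0.241 in BN (SD, n = 5 each), or a log2 difference of 1.55 (adjusted p = 0.000299 from limma), and *Lsr* had 1.34 (adjusted p = 0.0339). *Crb3*, a gene of apical polarity, had 1.34 (adjusted p = 0.0033). Its other probe sets had 0.53 (adjusted p = 0.106), 1.02 (adjusted p = 0.00103) and 2.32 (adjusted p = 0.0131, all from limma). *Clmp*, which encodes an adhesion molecule related to the coxsackievirus receptor, was higher in BN at -1.39 (adjusted p = 0.0123), and -0.43 on its other probe set (adjusted p = 0.223). *Ildr2*, another angulin gene, was near background in ACI rats and in BN rat 5, and had -2.09 (adjusted p = 0.0465), or -0.85 with values under 4 set to 4 (adjusted p = 0.166). *Jam2*, a relative of *F11r*, was not called on its representative probe set, at -0.54, and was called on a dimmer one near background in BN, at 1.17 (adjusted p = 0.0247). *Lsr*, *Crb3*, *Ildr2* and *Jam2* were named after their values were seen.

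Among 24 genes of the plaque and of polarity, *Cgn*, which encodes the junctional adaptor cingulin, was at 8.97 ± 0.349 in ACI and 6.62 ± 0.591 in BN (SD, n = 5 each), or a log2 difference of 2.35 (adjusted p = 0.0016 from limma). Its relative *Cgnl1*, paracingulin, had 1.47 (adjusted p = 0.00115) and 2.63 on its other probe set (adjusted p = 0.00191). *Prkci*, an atypical protein kinase C gene of the polarity complex, and *Ybx3*, a DNA-binding protein that ZO-1 can hold at the junction, were also called higher in ACI, at 0.73 and 0.68; both were named after their values were seen. Higher in BN were *Arhgef2*, which encodes a protein that cingulin can bind, at -1.01 (adjusted p = 0.00377), and *Mpdz*, a scaffold with many PDZ domains, at -0.96 (adjusted p = 0.0399). The other 18 genes of this list were not called on their representative probe sets. Another probe set of *Magi1*, a scaffold gene named after its values were seen, was called higher in ACI at 0.79 (adjusted p = 0.0271), beside 1.49 on the representative one (adjusted p = 0.052).

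**Figure D5:**
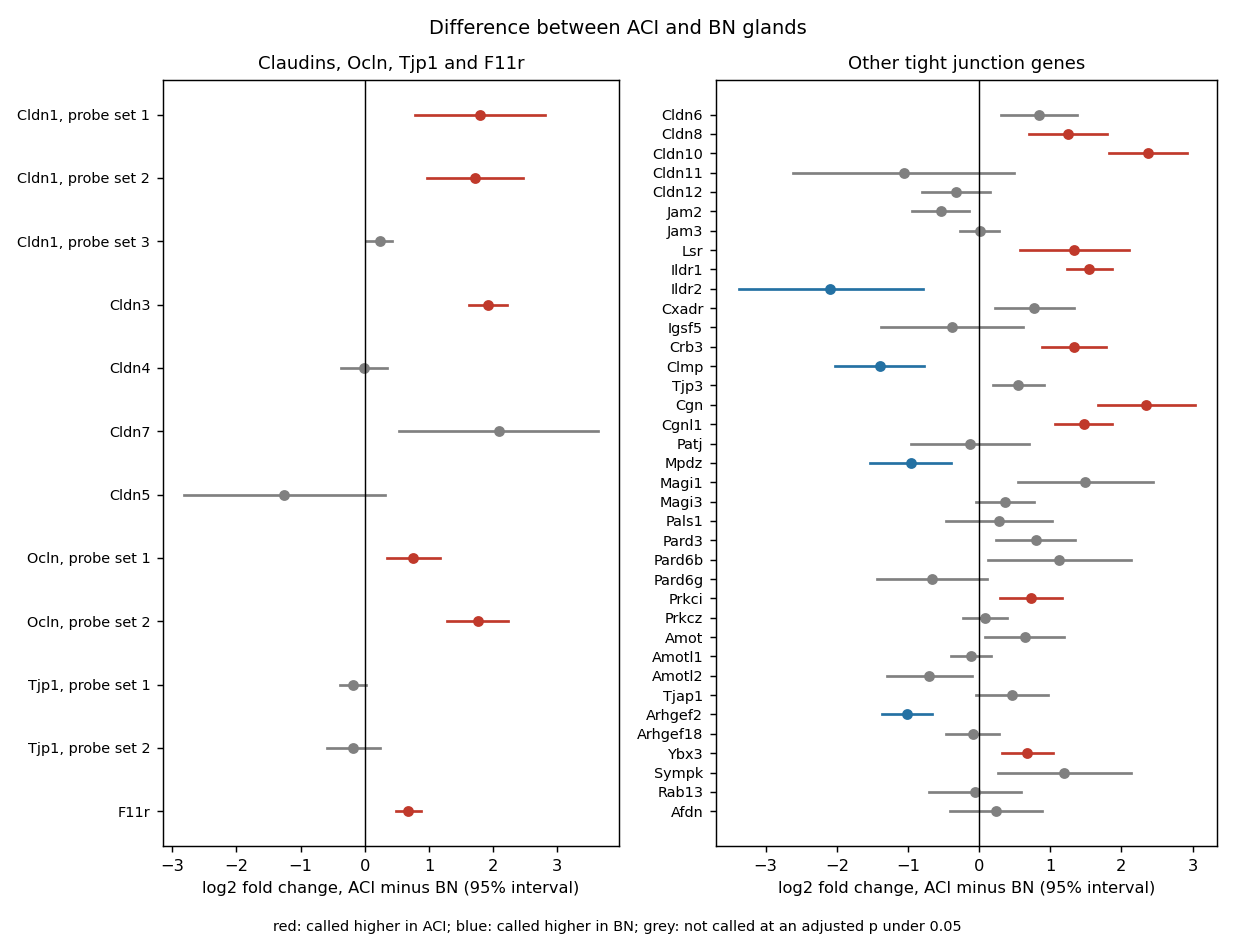
Log2 fold change, ACI minus BN (x axis), with 95% intervals from limma, for the 12 probe sets of the 8 genes (left) and for further tight junction genes that were not near background in both strains (right), by representative probe set. Colour marks a call at an adjusted p under 0.05 (red higher in ACI, blue higher in BN, grey not called); *Cgn* is at 2.35 and *Cldn10*, whose BN rats were mostly under 4, at 2.37.

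As a description of likeness within strains, each gene's deviations from its strain means over the 10 rats were set against those of 2 profiles, among 7296 genes with a mean log2 level of at least 6. The genes most like the mean of *Cldn3*, *Cldn4* and *Cldn7*, in which *Cldn7* varied most, were *Aph1a*, *Sh3yl1*, *Ndfip1*, *Dixdc1* and *Ldlrad3*, with Pearson r of 0.949, 0.937, 0.92, 0.906 and 0.881. Those most like *Cldn5* were *Rassf5*, *Bola1*, *Ppil1*, *Ltb* and *Med11*, with r of 0.982, 0.967, 0.966, 0.962 and 0.959. *Ltb*, the lymphotoxin beta gene of lymphocytes, had a log2 fold change of -2.52 (adjusted p = 0.0559 from limma), and *Rassf5*, a gene of lymphocyte adhesion signalling, had -1.03 (adjusted p = 0.218). *Bola1*, *Ppil1* and *Med11* had 0.61, -0.32 and -0.03, and none of the 5 was called. All points share arrays and normalization. No vessel gene of the endothelial list was among these 5, but some of that list, such as *Flt1* and *Tie1*, had a mean under 6 and were not searched. With only 5 of 7296 genes named, this absence does not tell vessels from lymphocytes.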

How the data were processed

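Affymetrix Rat Genome 230 2.0 arrays measured total RNA of mammary glands, 1 array for each of 5 ACI and 5 BN rats. Per the labels, the authors summarized the probes with GCRMA 2.18.1, which corrects background by probe sequence and normalizes between arrays; the deposited log2 values have 2 decimals and a floor of 2.23. The sources used here do not say which arrays entered 1 normalization, and the strains were deposited as separate runs of samples, so deposit and strain cannot be told apart. Of 31099 probe sets, 57 controls were left out. The platform annotation gave 1 symbol to 20826 of the 31042 tested, several to 436 and none to 9780; symbols were updated by gene ID through RefSeq for 20758. Of a gene's probe sets, that with the highest mean over the arrays represents it.

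Strains were compared with limma 3.58.1 (R 4.3.3), in a model of strain alone with Benjamini-Hochberg adjustment over every probe set. The fit was tested on simulated data without a floor, with changes placed only in probe sets well above background. That test does not cover values near the floor. Single values had an exact permutation test over all 252 arrangements of rats. For differences from Cldn5, the moderated variances planned were not used, since every difference shares the spread of Cldn5 and their prior degrees of freedom were infinite; ordinary variances replaced them. Named genes are all probe sets of the 8 genes, the 4 called tight junction genes with the largest change in each direction whose higher strain averaged 5 or more, the 3 called luminal and endothelial markers with the largest change in each direction, and the 5 genes most like each claudin profile. The members and lists were chosen with earlier results of these data known. Alternatives were the replicate number and the ID series as blocks, each ID series alone, filters, scalings, variance models, the methods' t-test, marker lists as covariates and leaving out rats; the lymphocyte covariate and the ordinary variances were chosen after seeing the data.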

Additional observations from a re-analysis of the deposited data

Results flagged for a closer look

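With 32 groups of 5 rats examined, 3 had an end rat whose gap to the next exceeded 0.71 of the group's range. Chance alone flags about 5% of groups, a rate that does not hold for tied values. *Tjp1* on its second probe set, near background in both strains, was at 2.50 in ACI rat 3, with the other ACI rats at 2.47, and at 3.39 in BN rat 5, with the other BN rats at 2.47. With the other 4 values equal, any departure is flagged, however small. *Cldn4* less *Cldn5* was 3.82 in ACI rat 5, with the other ACI rats at 2.85 to 2.98; that rat had the lowest *Cldn5* level of its strain, 5.27.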

How the results depend on the processing

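Filters, floor, scaling, variance models, the methods' t-test, blocks, ID series S alone and leaving out rats gave 4 to 8 member calls toward ACI, against 6. The methods' t-test gave 8 before and 6 after Benjamini-Hochberg adjustment. For most of these settings, that unadjusted test among them, the share of all probe sets called was not counted. With the replicate number as a block there were 5 member calls toward ACI and, for the other tight junction genes, 6 toward ACI and 2 toward BN, against 9 and 4. Same-numbered rats did not deviate together (r of -0.202 to 0.201), which gives no sign of a pairing but cannot exclude one. Leaving out 1 rat gave 0 to 1 member calls toward BN, the 1 being *Tjp1* without ACI rat 5 or *Cldn5* without BN rat 3. For the other tight junction genes it gave 6 to 12 calls toward ACI and 2 to 5 toward BN, with 2 toward BN in each fit except those lacking ACI rat 1 (3) and BN rat 5 (5). Calls toward ACI among these genes were 16 with a mean of at least 4 and 17 by the methods' t-test before adjustment, and calls toward BN were 2 with trended and robust variances and 9 without BN rats 4 and 5. The matching shares of all genes were not counted, so these shifts cannot be read as particular to tight junction genes.

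Within ID series H, with 2 rats a strain, no member and no other tight junction gene was called (0 in each direction), where 0.145% of all probe sets were called toward ACI. *Cldn1* and *Cldn4* less *Cldn5* were 4.78 and 2.79 there, and *Cldn4* was 0.10. *Cldn3* and *Cldn7* less *Cldn5* were 2.22 and 2.29 within series S. The differences from *Cldn5* without 1 rat were 2.60 to 3.41 for *Cldn1*, 2.73 to 3.84 for *Cldn3*, 2.87 to 3.93 for *Cldn7* and 0.84 to 1.91 for *Cldn4*, with the highest of *Cldn4* without BN rat 3. *Cldn4*, at -0.01, was -0.09 to 0.08 without 1 rat. The second *Tjp1* probe set was 0.01 within series S, without BN rats 4 and 5 and without BN rat 5, and -0.22 to 0.01 without 1 rat, against -0.18.

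The luminal list as a covariate gave 4 calls toward ACI and 5 toward BN among the other tight junction genes, against 9 and 4 in the model of strain alone. Of all probe sets, 2.93% were called toward ACI in that fit, and the share toward BN was not counted. *Cldn1*, *Cldn3*, *Cldn4* and *Cldn7* less *Cldn5* were at 1.90, 0.95, -0.95 and 2.16, *Cldn5* at 0.60 and the second *Tjp1* probe set at 0.18. The endothelial list, whose means do not overlap between strains (6.02 to 6.88 in ACI and 7.16 to 7.60 in BN rats), left 0 calls among members and the other genes, in either direction. *Cldn1*, *Cldn3* and *Cldn7* less *Cldn5* were then 1.69, 3.69 and 0.26, *Cldn7* was -1.25, *Cldn4* 0.03 and the second *Cldn1* probe set -0.02, while *Cldn3* was 2.18 (adjusted p = 0.0576 from limma), the second *Ocln* probe set 1.60 and *F11r* 0.71. The lymphocyte and macrophage list, which also separates the strains (5.83 to 6.15 in ACI and 7.31 to 9.66 in BN rats), left 0 member calls, 1 call toward ACI and 0 toward BN among the other genes. It gave 0.20, -1.55, -3.57 and -1.25 for *Cldn1*, *Cldn3*, *Cldn4* and *Cldn7* less *Cldn5*, 2.86 for *Cldn5*, -0.12 for the first *Ocln* probe set and 0.01 and 0.09 for the 2 *Tjp1* probe sets. A covariate that separates the strains leaves little of the strain difference to estimate.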
